A study of Mus musculus with 4 samples.

Results

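The 10 genes described here mark the capillary endothelium of the lung alveolus. Gpihbp1, Kit, Glp1r, Cd93 and Sema3c are used as markers of general capillary cells, and Car4, Fibin, Tbx2, Emp2 and Chst1 as markers of aerocytes. They were taken by symbol from the 30702 genes of the array table. Probe sets were to be chosen by their mean level over the 4 arrays, but each of the 10 genes had a single probe set, so that no measured value decided which was used.

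The arrays, from Affymetrix, measured RNA of the whole lung of adult mice matched for age. The control group, WT, held 2 arrays of lungs from the C57/BL6 strain. The other group, SCD, for sickle cell disease, held 2 arrays of lungs from mice whose strain is given as SCD Tg. Disease genotype and strain label change together between the groups, so their parts in any difference cannot be told apart. The sources used here do not give the line, its alleles, the sex or the age in weeks, nor a treatment. The design text gives 2 lungs for each genotype, and nothing else says that the arrays come from separate animals, so p-values measure the spread between these samples. Values are log2 expression values, differences are SCD minus WT, and a difference of 1 is a doubling. Errors of group means are SD with n = 2, and those of differences are the moderated standard error (SE) of limma.

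The alveolar capillary net is built from a pair of intermingled endothelial cell types. Aerocytes are large, thin cells found only in the lung that lie along the gas exchange surface, and their formation depends on VEGFA made by alveolar type 1 cells. General capillary cells resemble the capillary cells of other organs, help to set vessel tone, and act as progenitors that can renew both types. In whole lung RNA, fewer cells of a type and less RNA per cell cannot be told apart.

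Across all genes, 952 of 30702 passed an adjusted p of 0.05, which is 3.1 percent, with 0.635 percent lower and 2.47 percent higher in SCD. The median difference over all genes was 0.0020. When SCD replicate 1 or SCD replicate 2 was left out, 0 genes passed in limma, and 3306 and 3270 had an unadjusted p under 0.05. Genes of the labelled tissue were present. All 7 alveolar type 2 genes and all 9 alveolar type 1 genes read above the median of the intron control probes (6.48 in WT and 6.29 in SCD), as did 12 of 13 pan-endothelial genes; Sftpc and Lyz2 held identical values on all 4 arrays, and no direction can be read for them. The median of the exon control probes was 0.20 higher in SCD than in WT, whereas that of the intron control probes differed by -0.18. These control sets went opposite ways, so no single shift describes both. Taking the exon control shift off the SCD values moved the median of all genes to -0.19, and the share of calls that were higher from 79.5 percent to 47.8 percent.

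Of the 5 general capillary markers, 3 fell in SCD lung (Glp1r, Kit and Gpihbp1), 0 rose, and Cd93 and Sema3c did not pass the test. Of the 5 aerocyte markers, Car4 rose, 0 fell and the other 4 did not pass. The set was drawn up with earlier results of these arrays known, so these counts describe the genes and are no test of either cell type. The median difference was -1.56 over the general capillary markers and 0.18 over the aerocyte markers. As a mean over its 5 genes, the general capillary set read 12.59 and 12.57 in the WT lungs and 11.08 and 11.17 in the SCD lungs. The aerocyte set read 10.52 and 10.29 in the WT lungs and 10.70 and 10.81 in the SCD lungs. The general capillary mean was thus lower on both SCD arrays than on either WT array. The log2 of the summed values of this set was 15.36 and 15.29 in WT and 14.70 and 14.81 in SCD. For the aerocyte set it was 17.02 and 17.03 in WT and 17.34 and 17.26 in SCD. Without Car4, the mean of the other 4 aerocyte genes was 10.07 and 9.77 in WT and 10.01 and 10.11 in SCD, and the groups overlap. Of these, Chst1, whose mean lay below the intron controls in both groups, had the widest WT spread (6.56 and 5.42). Both SCD arrays lay above both WT arrays for Tbx2 and Emp2, and the groups of Fibin overlapped. For Tbx2 the gap was very small, with 7.915 on WT replicate 2 and 7.923 on SCD replicate 1.

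**Figure D1:**
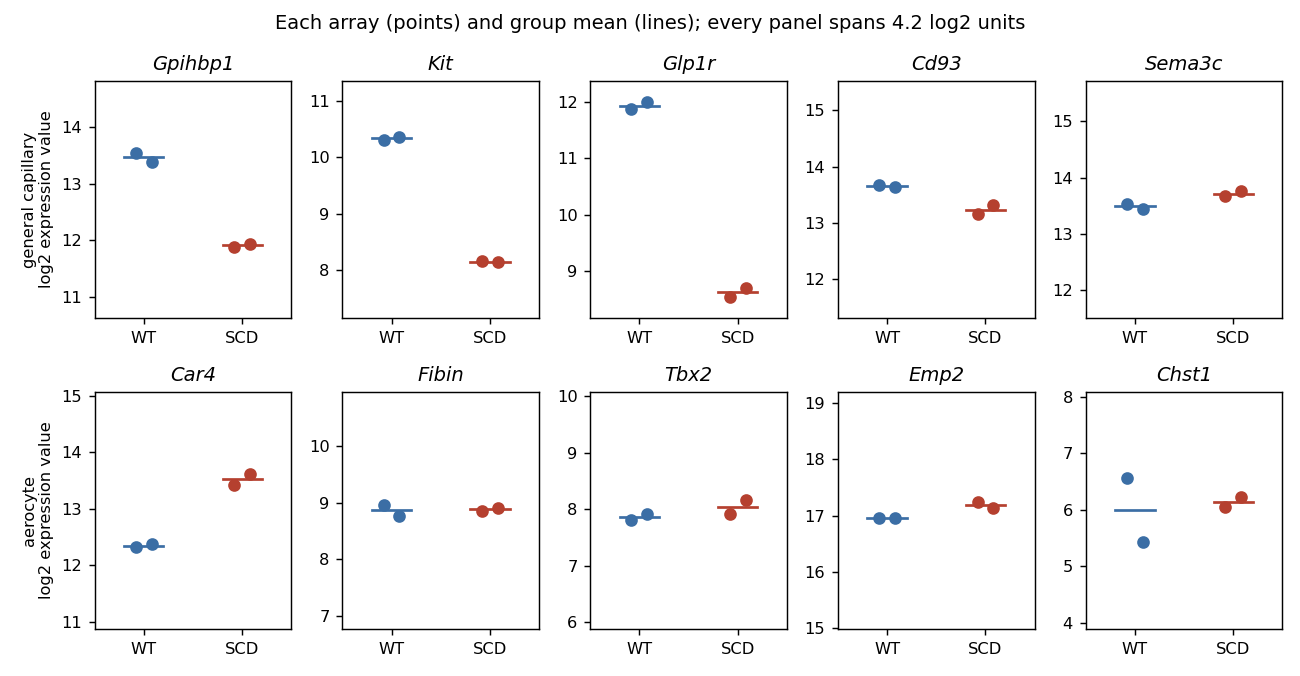
Log2 expression value (y axis) of each of the 10 genes on the WT and SCD arrays, with points for arrays, lines for group means and a range of equal length on every y axis. The groups lie far apart for Gpihbp1, Kit, Glp1r and Car4, whereas the WT arrays of Chst1 (6.56 and 5.42) lie on both sides of its SCD arrays.

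Glp1r encodes the receptor for glucagon-like peptide 1, the incretin hormone of the gut, and in the mouse lung it marks general capillary cells. It read 11.87 and 11.99 in the WT lungs and 8.54 and 8.71 in the SCD lungs. Both SCD arrays lay far below both WT arrays, and the spread within each group was small (11.93 ± 0.086 in WT and 8.62 ± 0.12 in SCD). Glp1r fell by 3.31 ± 0.11, or 9.88-fold, with an adjusted p of 0.00232 in limma. Among all 30702 genes it had the decrease of rank 2.

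Kit encodes the receptor tyrosine kinase for stem cell factor, which is present on general capillary cells, mast cells and blood progenitors. It read 10.31 and 10.36 in the WT lungs and 8.17 and 8.15 in the SCD lungs. The arrays of a group nearly coincided, and the groups did not overlap. Kit fell by 2.18 ± 0.090, a 4.54-fold change with an adjusted p of 0.00291, and had the decrease of rank 7. Mast cells are another source of Kit transcripts in lung. None of the 7 mast cell genes passed (median difference 0.031, range -0.11 to 0.83), and 6 of the 7, all but Cpa3, read below the intron control median in both groups. The log2 of their summed values was 8.39 on each WT array and 8.59 and 8.48 in the SCD lungs, mostly from genes below the intron controls, and Cpa3 itself differed by -0.11 ± 0.15. The part of mast cells in the Kit difference was not tested.

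Gpihbp1 encodes the surface protein that carries lipoprotein lipase across capillary endothelium and holds it at the lumen. It read 13.55 and 13.39 in the WT lungs and 11.88 and 11.93 in the SCD lungs. The groups were again well separated. Gpihbp1 fell by 1.56 ± 0.087, a 2.95-fold change with an adjusted p of 0.0051, and had the decrease of rank 26.

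Cd93 and Sema3c showed small differences that went opposite ways. Cd93, a C-type lectin-like receptor of endothelial cells that takes part in cell adhesion and sprouting, read 13.68 and 13.63 in WT and 13.15 and 13.32 in SCD. Both SCD arrays lay below both WT arrays. The difference of -0.42 ± 0.084 did not pass (adjusted p = 0.0828 in limma; 95% interval -0.64 to -0.20). It passed in 3 of the 12 alternatives that kept all 4 arrays, whose adjusted p ran from 0.0323 to 0.178. Among the general capillary markers, Cd93 was the one whose call changed between these 12 alternatives.

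Sema3c encodes a secreted semaphorin that signals through neuropilins and plexin D1. It read 13.53 and 13.45 in WT and 13.67 and 13.77 in SCD, so that the SCD arrays lay above the WT arrays, the reverse of the other 4 general capillary markers. The difference of 0.22 ± 0.076 did not pass (adjusted p = 0.237; 95% interval 0.030 to 0.42), and with the exon control shift removed it was 0.03. A decrease of the size seen for Gpihbp1, Kit or Glp1r lies outside this interval.

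The promoters of the general capillary markers with the largest decreases, Glp1r and Kit, and that of Car4, the aerocyte marker that rose, are shown here so that the genes that moved apart can be compared. RefSeq promoter sequences (build GRCm38.p6) matched 7 of the 10 genes. The 250 bases before the annotated start are given 5′ to 3′, with matches to the ETS core GGAA (or its reverse complement TTCC) in capitals, since ETS factors are general regulators of endothelial genes. They lie on the plus strand at chr17:30901617-30901866 for Glp1r, chr5:75574737-75574986 for Kit (the first of 2 listed starts) and chr11:84957504-84957753 for Car4.
Glp1r: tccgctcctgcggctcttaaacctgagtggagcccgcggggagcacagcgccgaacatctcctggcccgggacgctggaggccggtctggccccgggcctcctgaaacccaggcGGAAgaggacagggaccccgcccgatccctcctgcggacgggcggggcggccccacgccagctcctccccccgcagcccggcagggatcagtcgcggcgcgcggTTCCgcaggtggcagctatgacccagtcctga
Kit: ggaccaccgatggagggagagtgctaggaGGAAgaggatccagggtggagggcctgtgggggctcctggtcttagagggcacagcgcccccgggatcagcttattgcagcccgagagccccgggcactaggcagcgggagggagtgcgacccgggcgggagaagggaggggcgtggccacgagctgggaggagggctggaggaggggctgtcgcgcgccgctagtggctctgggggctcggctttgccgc
Car4: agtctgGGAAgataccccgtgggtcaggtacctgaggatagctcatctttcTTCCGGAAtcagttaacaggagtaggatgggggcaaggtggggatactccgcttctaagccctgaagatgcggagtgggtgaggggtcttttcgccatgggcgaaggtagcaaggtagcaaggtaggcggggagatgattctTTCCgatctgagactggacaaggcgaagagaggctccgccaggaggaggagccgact

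The Glp1r and Kit windows were rich in G and C (73.2 and 70.8 percent, with 26 and 17 CpG pairs), against 56.4 percent and 11 CpG pairs for Car4 and a median of 52.0 percent and 6 CpG pairs over 27025 promoters of the same length. Sema3c, a general capillary marker that did not fall, had the highest values of the 7, 78.4 percent and 39 CpG pairs. The ETS core, counted on both strands with overlaps allowed, matched 2 times in Glp1r, 1 time in Kit and 4 times in Car4; 93.4 percent of all promoters held it, with a median of 3 matches. A GC box, GGGCGG or CCGCCC, matched 3 times in Glp1r, 1 time in Kit and 0 times in Car4. It also matched 3 times in Sema3c and 2 times in Emp2, which did not fall, and 32.9 percent of promoters held it. The GATA motif AGATAA was found on neither strand of the 7 windows, and 10.3 percent of all promoters held it. The TATA box, TATAAA, was not found there either, and 13.0 percent of all promoters held it. These matches describe letters in the windows only.

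Car4 was the aerocyte marker that rose. It encodes carbonic anhydrase 4, an enzyme anchored to the outer surface of the cell that interconverts carbon dioxide and bicarbonate, and it is the gene most used to label aerocytes in the mouse. Car4 read 12.32 and 12.37 in the WT lungs and 13.42 and 13.63 in the SCD lungs, with no overlap. It rose by 1.18 ± 0.094, a 2.26-fold change with an adjusted p of 0.0078 in limma, from 12.35 ± 0.033 to 13.52 ± 0.14.

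Alveolar macrophages of the mouse also carry Car4. Of 6 alveolar macrophage genes, the fatty acid binding protein gene Fabp1 (-1.96 ± 0.12) and the scavenger receptor gene Marco (-1.48 ± 0.10) fell, 0 rose and 4 did not pass, with the lectin-like Chil3 at 0.39 ± 0.080 and the sialic acid lectin gene Siglecf at -0.49 ± 0.12. The median of these 6 was -0.28, and 1 of them, Krt79, read below the intron controls in both groups. The log2 of their summed values, set by Chil3, was 13.71 and 13.87 in WT and 14.00 and 14.09 in SCD. Of 7 white blood cell genes, S100a9, S100a8 and Cd3e rose and 4 did not pass (median 0.64). Ly6g read below the intron controls. The log2 sum, set by S100a8 and S100a9, was 16.10 and 16.48 in WT and 18.74 and 18.89 in SCD. The part of these cells in the Car4 difference was not tested.

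Emp2 encodes a tetraspan epithelial membrane protein that is abundant in alveolar type 1 cells as well as in aerocytes. It read 16.95 and 16.96 in WT and 17.23 and 17.13 in SCD. Both SCD arrays were higher, but the difference of 0.22 ± 0.057 did not pass (adjusted p = 0.139; 95% interval 0.078 to 0.37), and with the exon control shift removed it was 0.03. With protein-coding genes alone it passed (adjusted p = 0.0484, in a range over the 12 alternatives with all arrays from 0.0484 to 0.758). Of 9 alveolar type 1 genes, Igfbp2, which encodes a binding protein of insulin-like growth factors (0.91 ± 0.095), and the sodium channel gene Scnn1g (1.03 ± 0.14) rose, 0 fell and 7 did not pass, with a median of 0.20. The log2 sum of these 9 genes was 16.65 and 16.74 in WT and 16.95 and 16.99 in SCD.

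The other 3 aerocyte markers did not pass and changed sign with the exon control shift removed. Tbx2, a T-box transcription factor gene, read 7.80 and 7.92 in WT and 7.92 and 8.16 in SCD, a difference of 0.18 ± 0.13 (adjusted p = 0.558; 95% interval -0.14 to 0.50) that became -0.01 with that shift removed. Fibin, which encodes a secreted protein first described in fin development, read 8.96 and 8.77 in WT and 8.86 and 8.91 in SCD. Its groups overlapped, with a difference of 0.02 ± 0.11 (adjusted p = 0.952; 95% interval -0.26 to 0.30). Chst1, a sulfotransferase gene that acts on keratan sulfate and related sugars, read 6.56 and 5.42 in WT and 6.04 and 6.23 in SCD. Its mean lay below the intron controls in both groups, and its interval, -0.82 to 1.12 around 0.15, was the widest of the 10 genes. For Tbx2 and Fibin the 95% intervals leave out a change of 1 in either direction, whereas for Chst1 a change of 1 upward was not excluded by its interval.

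Counted by overlap alone, 4 of the 5 general capillary markers had both SCD arrays below both WT arrays and 1 above. Of the 5 aerocyte markers, 3 had both above, among them Tbx2 with a very small gap. Over all genes 22.5 percent lay below and 25.3 percent above in this way, 47.7 percent together, so that a lack of overlap between 2 arrays and 2 arrays is a weak sign for a single gene.

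Other genes of the same cell types were measured beside these markers. They were listed from general knowledge, but with earlier results of these arrays known. Their counts thus describe these genes and are no test of either cell type. Of 5 further general capillary genes, 3 fell, 0 rose and 2 did not pass, with a median of -1.82. Aplnr, the apelin receptor, read 10.05 and 10.61 in WT and 6.91 and 7.15 in SCD, and fell by 3.31 ± 0.21 (9.89-fold; adjusted p = 0.00691), the decrease of rank 1 among all genes. Tek, the angiopoietin receptor gene, fell by 1.94 ± 0.076. Ptprb, a phosphatase gene of endothelial cells, fell by 1.82 ± 0.078. Plvap, which encodes the diaphragm protein of endothelial fenestrae and caveolae, read 8.43 and 9.05 in WT and 7.77 and 7.75 in SCD and did not pass (-0.98 ± 0.22, adjusted p = 0.104). The chemokine gene Cxcl12 did not pass either (-0.16 ± 0.16).

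Among 4 further aerocyte genes measured, 1 rose, 0 fell and 3 did not pass, with a median of 0.051. Apln, which encodes the apelin peptide that the receptor Aplnr binds and which aerocytes make, read 9.54 and 9.52 in WT and 10.47 and 10.42 in SCD. It rose by 0.92 ± 0.086 (1.89-fold; adjusted p = 0.0113). Ednrb, the endothelin B receptor gene (-0.25 ± 0.086), Kdr, the VEGF receptor 2 gene (-0.37 ± 0.11), and Rprml (0.36 ± 0.13) did not pass. The mean of Rprml lay below the intron controls in both groups (4.66 in WT and 5.02 in SCD), yet it enters the median of 0.051. The ligand gene Apln thus rose while its receptor gene Aplnr fell, and both SCD arrays of Ednrb and Kdr lay below the WT arrays.

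**Figure D2:**
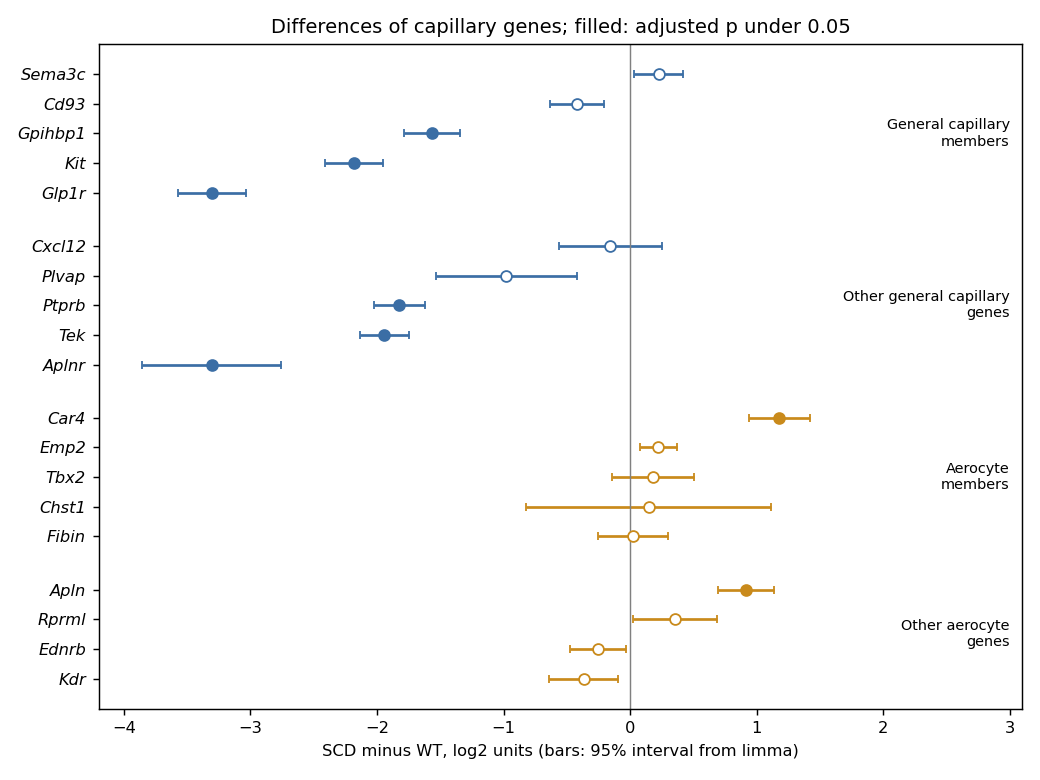
SCD minus WT difference in log2 units (x axis) of the general capillary and aerocyte markers and of 9 further genes of these cell types, with 95% intervals from limma and filled points for an adjusted p under 0.05. Filled points of general capillary genes (blue) all lie below 0, from -1.56 for Gpihbp1 to -3.31 for Glp1r and Aplnr, and those of aerocyte genes (yellow), Car4 at 1.18 and Apln at 0.92, lie above 0.

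Genes of endothelium as a whole and of other vessels were read beside these. Of 13 pan-endothelial genes, 3 fell, 0 rose and 10 did not pass, with a median of -0.14 and a range of -1.07 to 0.65. Clec14a, a lectin-like relative of Cd93, fell by 1.07 ± 0.12. The adrenomedullin receptor gene Calcrl (-0.57 ± 0.060) and Cdh5, the cadherin of endothelial junctions (-0.47 ± 0.076), also fell, while the receptor gene Tie1 did not pass (-0.60 ± 0.10). The log2 of their summed values was 16.88 and 16.93 in WT and 16.46 and 16.50 in SCD; Calcrl and Cdh5 make up most of this sum (from 78.5 to 85.8 percent over the 4 arrays). Genes of the list also went the other way without passing, among them Cldn5, a claudin of endothelial junctions (0.65 ± 0.16), Pecam1 (0.24 ± 0.096) and Emcn (0.20 ± 0.20), named after their values were seen. Of 6 arterial genes, the ephrin gene Efnb2 (-1.54 ± 0.092) and the Notch target gene Hey1 (-0.95 ± 0.088) fell and 4 did not pass. The median was -0.37, and Dkk2 read below the intron controls. The log2 sum, mostly from Efnb2 and Hey1, was 12.56 and 12.57 in WT and 11.47 and 11.59 in SCD. None of 6 venous genes (median 0.29) and none of 4 lymphatic genes (median 0.052) passed in limma, with 3 venous genes and 0 lymphatic genes at an unadjusted p under 0.05. In both groups, 2 of the 6 venous genes and 2 of the 4 lymphatic genes read below the intron controls. Ackr1, 1 of the 3 venous genes just counted, was among them. The part of a wider endothelial shift in the decreases of Glp1r, Kit and Gpihbp1 was not tested.

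**Figure D3:**
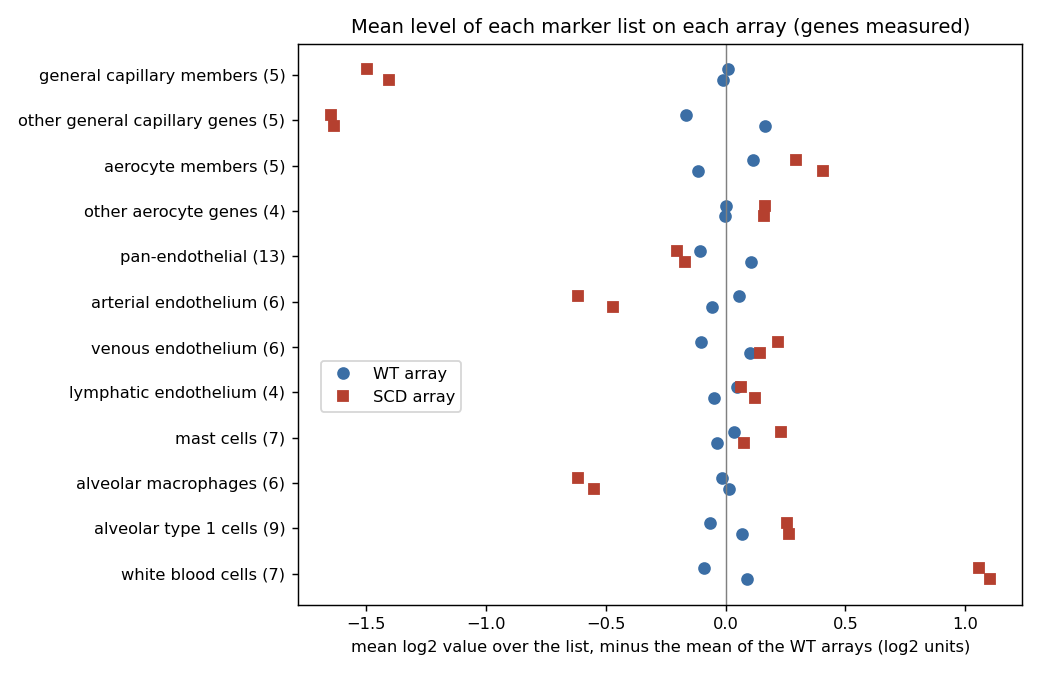
Mean log2 value of each marker list on each array, less the mean of the WT arrays (x axis, log2 units), with circles for WT and squares for SCD arrays and the number of genes measured in brackets. Both general capillary lists lie well to the left on both SCD arrays (for the 5 markers, 11.08 and 11.17 against 12.59 and 12.57), the alveolar macrophage list (8.30 and 8.36 against 8.90 and 8.93) and the arterial list (7.78 and 7.93 against 8.46 and 8.34) also lie to the left, and the white blood cell list lies to the right.

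Binding partners of the marker proteins gave a mixed picture. Of 10 measured, 1 rose, 1 fell and 8 did not pass, with a median of -0.071. Mmrn2, multimerin 2, the matrix protein of vessels to which CD93 binds, read 8.77 and 8.73 in WT and 10.35 and 10.48 in SCD. It rose by 1.66 ± 0.095 (3.17-fold; adjusted p = 0.00565), whereas Cd93 itself had a difference of -0.42. Dpp4, the peptidase that inactivates glucagon-like peptide 1, fell by 0.91 ± 0.12 (adjusted p = 0.0288), beside the decrease of its substrate's receptor gene Glp1r.

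Lpl, the lipoprotein lipase gene whose product Gpihbp1 carries, read 10.19 and 10.07 in WT and 9.64 and 9.59 in SCD. Both SCD arrays were lower, but the difference did not pass (-0.51 ± 0.094, adjusted p = 0.0664). Its inhibitor gene Angptl4 (0.31 ± 0.14) and its maturation factor gene Lmf1 (-0.06 ± 0.11) did not pass. Kitl, the ligand gene of Kit, differed by 0.0022 ± 0.090, with a small spread within each group (11.62 and 11.46 in WT, 11.53 and 11.56 in SCD). Gcg, which encodes the precursor of glucagon-like peptide 1, read between 3.88 and 4.32 on all 4 arrays, below the intron controls, and Vegfa, the VEGF ligand gene, differed by -0.07 ± 0.070.

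Sema3c signals through Plxnd1 and Nrp2 among others. Plxnd1 did not pass (-0.55 ± 0.098, adjusted p = 0.0611). The brighter probe set of Nrp2 read 7.00 and 11.45 on the WT arrays against 6.64 and 6.51 on the SCD arrays, so that its difference of -2.65 rests on WT replicate 2; the second probe set read 7.30 and 7.35 in WT and 7.50 and 7.52 in SCD.

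Among all named genes without a predicted or clone-derived name, those closest to Glp1r over the 4 arrays, by Euclidean distance after each gene was centred on its mean, were Aplnr (distance 0.32), the small nucleolar RNA gene Snord14e (1.02), the ubiquitin ligase gene Rnf144a (1.12), Kit (1.13) and Fabp1 (1.36). Aplnr stood much nearer than the rest, and Kit was the one other marker of the set among the 5. Around Car4 the 5 nearest were Ctla2b (0.062), the B cell survival factor gene Tnfsf13b (0.063), the interferon-induced chemokine gene Cxcl10 (0.063), the BMP target gene Id1 (0.064) and the granzyme gene Gzmk (0.079). None of these 5 is an aerocyte marker of the lists. The distances describe 4 arrays and reflect mostly the size of the group difference.

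The 4 called markers kept their direction and their call in all 12 alternatives that kept all 4 arrays, with adjusted p of at most 0.0054 for Glp1r, 0.0088 for Kit, 0.0157 for Gpihbp1 and 0.0237 for Car4. With SCD replicate 1 or SCD replicate 2 left out, their differences stayed near the reported ones (for Glp1r -3.22 and -3.39, for Car4 1.28 and 1.08) and their adjusted p rose to between 0.0692 and 0.108, where limma called 0 genes of all 30702. With a single SCD array the spread comes from the WT arrays, and the lone SCD array is assumed to vary as they do.

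**Figure D4:**
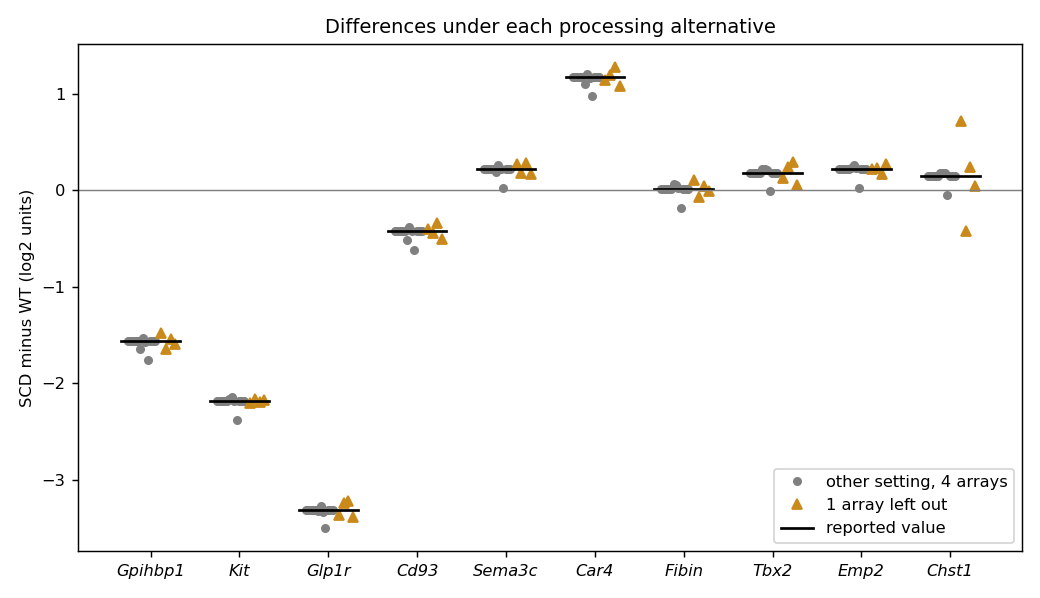
SCD minus WT difference in log2 units (y axis) of each of the 10 genes under the 12 alternatives with all 4 arrays (grey) and with 1 array left out (yellow triangles), beside the reported value (black line). Glp1r, Kit, Gpihbp1 and Cd93 stay below 0 and Car4 above 0 throughout, whereas Fibin, Tbx2 and Chst1 cross 0, with Chst1 running from -0.42 to 0.72.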

How the data were processed

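The deposited table held log2 expression values, made by the authors, for 72688 probe sets on 4 arrays. The submitters' processing notes name RMA, Partek and Affymetrix Expression Console; the sources used here give no version, role or genome build. The log2 scale was read from the values (1.72 to 19.93). Of 65956 transcript clusters, 31258 were annotated to 1 gene and 1492 to several, which were not used; symbols were updated through RefSeq (GRCm38.p6). Each gene took its probe set with the highest mean, which gave 30702 genes.

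SCD was compared with WT (titles gave the groups) in limma 3.58.1 (R 4.3.3; lmFit, eBayes with intensity trend, two-sided, Benjamini-Hochberg over all genes, threshold 0.05); the script was tested on simulated data. The number of arrays limits the precision. The members and lists were chosen with earlier results of these data known. All 10 members, further capillary genes and binding partners could be named, and up to 4 genes of smallest p from other lists; Dkk2, Ly6g, Krt79, Cpa3, Sftpc and Lyz2 were named after their values were seen. Alternatives are given in the closing section.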

Additional observations from a re-analysis of the deposited data

How the results depend on the processing

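The counts of called genes were 952 over all genes, 3 for the general capillary markers and 1 for the aerocyte markers. With all 4 arrays kept, the alternatives gave 648 to 1359, 3 to 4 and 1 to 2; the count of 2 aerocyte markers came with protein-coding genes alone, where fewer genes are tested and Emp2 passed. With each array left out in turn, the counts ran from 0 to 786 over all genes (508 without WT replicate 1), from 0 to 3 for the general capillary markers and from 0 to 1 for the aerocyte markers. The 0 counts came without either SCD array, where limma had 4 and 4 general capillary and 1 and 2 aerocyte markers at an unadjusted p under 0.05. Cd93 passed with repeated quantile normalization (-0.51), with the exon control shift removed (-0.62) and with protein-coding genes alone (-0.42). Differences turned negative with the exon control shift removed for Fibin (-0.18), Tbx2 (-0.01) and Chst1 (-0.05), without WT replicate 2 for Fibin (-0.07) and Chst1 (-0.42), and without SCD replicate 2 for Fibin (-0.01); none of these passed. Over the arrays left out in turn, the differences ran from -0.07 to 0.11 for Fibin and from -0.42 to 0.72 for Chst1. The replicate number as a block gave 973 calls over all genes and the same counts of 3 and 1 for the markers. Same-numbered arrays did not deviate together (correlation of -0.0022 over genes). With 2 arrays in each group this cannot show whether the numbers mark a pairing, and the array titles name none.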

Other observations

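Genes related by family to the markers were also read. Of 36 measured, 3 rose, 2 fell and 31 did not pass, with a median of 0.026. Ly6c1, a surface protein gene of the Ly6 family to which Gpihbp1 is related, read 13.98 and 13.94 in WT and 15.51 and 15.47 in SCD and rose by 1.53 ± 0.060 (adjusted p = 0.0028 in limma), opposite in direction to Gpihbp1. Among carbonic anhydrase genes, Car1, the form abundant in red blood cells, rose by 1.42 ± 0.13, and Car3, the form abundant in muscle and fat, fell by 1.35 ± 0.12. Car1 read 4.92 and 4.91 in WT, below the intron controls, and 6.47 and 6.21 in SCD, near their median of 6.29. Car2 did not pass (0.39 ± 0.16); it was named with its value known. Clec14a fell, as given above, and Sema3f, likewise named with its value known, rose by 0.62 ± 0.096 (adjusted p = 0.0453).

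Cell division genes did not pass in 4 of 4 cases in limma, with Mki67, the proliferation marker, at 0.44 ± 0.098 (adjusted p = 0.108) and 1 of the 4 at an unadjusted p under 0.05. Among these 4 genes, 2 read below the intron controls in both groups. Of 7 fibroblast and pericyte genes, the collagen gene Col1a1 fell (-0.64 ± 0.10) and 6 did not pass, among them Npnt (-0.60 ± 0.11), Pdgfrb (-0.54 ± 0.11) and Tcf21 (0.66 ± 0.19). None of the 7 alveolar type 2 genes passed (median -0.085), with 1 of them at an unadjusted p under 0.05.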
